A study of Mus musculus with 6 samples.

Results

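Peripherin (Prph) and 8 further genes widely used to mark neurons, namely Nefl, Nefm, Tubb3, Stmn2, Dcx, Elavl3, Elavl4 and Uchl1, were followed in mouse embryonic fibroblasts. They are 9 of the 49315 genes listed, found by symbol, and each symbol matched 1 row. The cells were grown out of E13.5 mouse embryos, and total RNA was taken at passage 0 after 2 days of culture, depleted of ribosomal RNA and sequenced. The R206H group carried the genotype Acvr1R206H/+, with 1 mutant copy of the BMP receptor gene Acvr1 and 1 normal copy, and the wild-type group was Acvr1+/+. This arginine-to-histidine change is the classical cause of fibrodysplasia ossificans progressiva, a disease of bone growth in muscle and connective tissue. There were 3 libraries per genotype, called biological replicates by the submitters. The sources used here give neither the strain nor which embryo gave which library, and cultures of this kind are mixtures of embryonic cells rather than 1 cell type.

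The genes encode proteins of the neuronal skeleton and of neuronal RNA and protein handling. Peripherin, neurofilament light (Nefl) and neurofilament medium (Nefm) are intermediate filament subunits, peripherin mostly in neurons with peripheral projections, the neurofilaments in large axons generally. Tubb3 is the beta-tubulin of neurons, Stmn2 a stathmin that acts on microtubule ends in growth cones, and Dcx a microtubule-binding protein of migrating young neurons. Elavl3 and Elavl4 bind AU-rich RNA, and Uchl1 is an abundant deubiquitinating enzyme of neurons. Several of these genes are also transcribed at some level outside neurons.

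Levels are TPM, each gene's share of 1000000 transcripts of its library after division by gene length, so levels can be set side by side between genes. Changes are differences in log2(TPM + 1), R206H minus wild type. The added 1 makes them too small for genes near 1 TPM. By contrast, ratios are of mean TPM. The genes were picked with this comparison already known, so their own values are a description, and the calls printed for them are the lines of a limma fit over all genes tested. The depth, estimated from the values, was 17800000 to 21700000 reads in R206H libraries and 17500000 to 24600000 reads in wild-type libraries.

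In R206H fibroblasts, peripherin and Tubb3 stood above wild type in every library, at 4.94 and 2.28 times the wild-type mean. For the other 7 genes the libraries of the genotypes overlapped. Uchl1, the most abundant of the set, averaged 0.699 times wild type, and Nefl, Nefm, Stmn2 and Elavl4 had ratios of 0.881 to 1.28. Dcx and Elavl3 stayed under 1 TPM in all 6 libraries. Of the 9 genes, 7 reached 1 TPM in at least 3 libraries and were tested, 2 were called higher (Prph and Tubb3), 0 lower and 5 not called, beside 2.04% of the 14818 genes tested (1.26% higher, 0.79% lower). Groups did not overlap for 2 of the 7, beside 32.9% of all genes tested (17.9% higher, 15.0% lower). At an unadjusted limma p under 0.05 there were 3 of the 7, the third being Uchl1, beside 26.1% of all genes. Limma voom on reads rebuilt from the values called Prph and Tubb3 higher too, beside 8.68% of the genes it tested. The 7 had a median log2 change of 0.07, against 0.02 over all genes tested. Because the genes were picked on this contrast, nothing is read from these counts. In bulk RNA, a different number of cells of a type and a different amount of RNA per cell cannot be told apart.

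**Figure D1:**
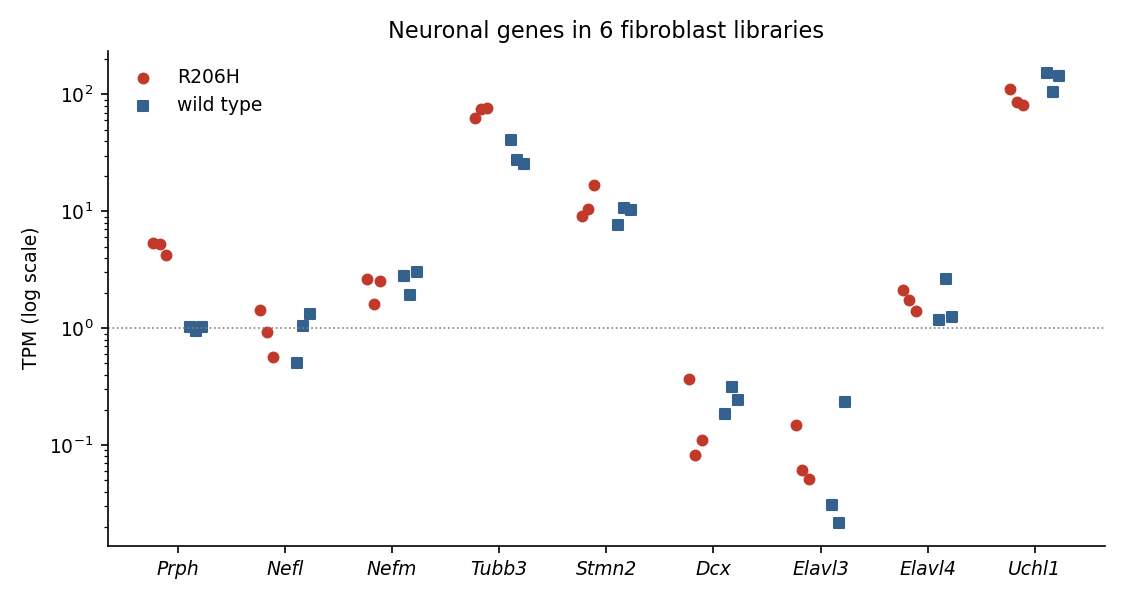
TPM of the 9 neuronal genes on a log axis, with R206H libraries as red circles and wild-type libraries as blue squares, 1 mark per library; the dotted line is 1 TPM. Prph and Tubb3 separate by genotype, while the marks of the other 7 genes overlap between genotypes.

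Peripherin, the gene with the clearest separation, lies on chromosome 15 (ENSMUSG00000023484, 99055174 to 99058978, plus strand, GRCm38), and Tubb3 on chromosome 8 (ENSMUSG00000062380, 123411424 to 123422015, plus strand). The regions around their start sites are printed because these are the genes of the set that were higher together. Both are RefSeq windows on GRCm38.p6, plus strand, with 250 bases before the start and 50 from it on, chr15:99054924-99055223 for Prph and chr8:123411303-123411602 for Tubb3. Capitals mark TATAAA, the letters of a TATA box, and CAGAC or its other strand GTCTG, the letters that SMAD proteins, the transcription factors below BMP receptors, are known to bind.
Prph: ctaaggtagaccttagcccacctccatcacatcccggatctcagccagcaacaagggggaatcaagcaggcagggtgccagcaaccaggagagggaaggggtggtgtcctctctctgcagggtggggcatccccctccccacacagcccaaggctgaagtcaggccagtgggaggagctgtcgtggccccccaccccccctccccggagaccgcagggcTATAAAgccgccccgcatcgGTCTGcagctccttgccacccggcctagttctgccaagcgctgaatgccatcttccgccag
Tubb3: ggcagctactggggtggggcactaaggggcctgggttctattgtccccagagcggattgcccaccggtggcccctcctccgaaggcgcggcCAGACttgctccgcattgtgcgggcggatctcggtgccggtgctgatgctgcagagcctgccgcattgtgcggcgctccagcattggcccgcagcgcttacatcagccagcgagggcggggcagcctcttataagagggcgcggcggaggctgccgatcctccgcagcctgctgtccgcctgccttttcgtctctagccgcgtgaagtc

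In the Prph window TATAAA begins 31 bases and GTCTG 11 bases before the RefSeq start, and the window is 64.7% G and C. In the Tubb3 window CAGAC begins 159 bases before the RefSeq start, TATAAA was not found on either strand, and G and C make up 67.3%. The RefSeq start of Tubb3 lies downstream of the gene start given above, and CAGAC is nearer to that gene start. Only the exact letters were searched. The Tubb3 window does hold TATAAG, which differs in the last letter and is printed there in small letters. On both strands, TATAAA was found in 13.6% and CAGAC in 49.6% of the 32851 windows of all genes, so the second motif is as common as not. Neither window held the E-box CANNTG, found in 72.3% of windows, or GGCGCC, a GC-rich motif known from BMP-responsive genes, found in 11.9%. Windows were matched for 6 of the 9 genes. Nefl, Nefm and Stmn2 were not matched.

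Among the intermediate filament genes, peripherin had 5.32, 5.29 and 4.24 TPM in R206H libraries 1, 2 and 3, against 1.02, 0.951 and 1.03 TPM in wild-type libraries 1, 2 and 3. All R206H libraries were more than 4 times every wild-type library, and the spread within either genotype was small beside that gap. The means were 4.95 ± 0.612 TPM in R206H and 1.00 ± 0.045 TPM in wild type (SD, n = 3 each), a log2 change of 1.57 (SE 0.161, limma adjusted p = 0.0272). The level is low, and these values rest on an estimated 62, 50 and 48 reads in R206H and 10, 13 and 13 reads in wild type. On the rebuilt reads, where no constant of 1 TPM is added, the log2 change was 2.19 (limma voom adjusted p = 0.0141).

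The neurofilament genes overlapped between genotypes. Nefl (chromosome 14, 68083863 to 68089095, plus strand) had 1.42, 0.931 and 0.572 TPM in R206H libraries 1, 2 and 3, against 0.502, 1.05 and 1.33 TPM in wild-type libraries 1, 2 and 3. Its lowest library was wild type and its highest R206H, and the log2 change was 0.01 with a 95% interval of -0.65 to 0.67 (limma adjusted p = 0.985), which still allows a change of moderate size either way. Nefm (chromosome 14, 68082590 to 68124846, minus strand) had 2.66, 1.60 and 2.56 TPM in R206H, against 2.79, 1.94 and 3.00 TPM in wild type. Replicate 2 was the lowest library in both genotypes, and the log2 change was -0.13 with an interval of -0.64 to 0.38 (limma adjusted p = 0.736). The annotated exons of this pair overlap by 1108 bases on opposite strands, 32.8% of Nefl and 19.2% of Nefm, and since the strand setting of the counting is not given in the sources used here, reads from the shared stretch cannot be assigned.

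Among the microtubule genes, Tubb3 had 62.3, 74.4 and 77.1 TPM in R206H libraries 1, 2 and 3, against 41.0, 27.5 and 25.2 TPM in wild-type libraries 1, 2 and 3. The lowest R206H library lay above the highest wild-type library, wild-type library 1. The means were 71.3 ± 7.86 TPM in R206H and 31.2 ± 8.51 TPM in wild type (SD, n = 3 each), a log2 change of 1.19 (SE 0.18, limma adjusted p = 0.0454), from an estimated 662 to 819 reads in R206H and 293 to 361 reads in wild type. The calls of Prph and Tubb3 were both lost without some single libraries. Without R206H library 2, R206H library 3, wild-type library 2 or wild-type library 3, the adjusted p was 0.0641 to 0.152 for Prph and 0.0946 to 0.152 for Tubb3, with log2 changes, over all 6 libraries left out in turn, of 1.52 to 1.65 for Prph and 1.06 to 1.40 for Tubb3.

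Stmn2 (chromosome 3, 8509360 to 8561606, plus strand) had 9.19, 10.4 and 16.8 TPM in R206H libraries 1, 2 and 3, against 7.61, 10.7 and 10.2 TPM in wild-type libraries 1, 2 and 3. R206H library 3 alone lay above wild type, and the log2 change was 0.29 with a 95% interval of -0.24 to 0.83 (limma adjusted p = 0.456). Without R206H library 3 it was 0.05. Dcx, on the X chromosome, had 0.365, 0.083 and 0.111 TPM in R206H, against 0.184, 0.316 and 0.241 TPM in wild type, with R206H library 1 the highest of all. That is an estimated 5 to 27 reads in R206H and 11 to 27 reads in wild type on 12647 bases of exon, too few for a fold to be read from them, and the ratio of means was 0.754 with all libraries and 0.393 without R206H library 1.

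**Figure D2:**
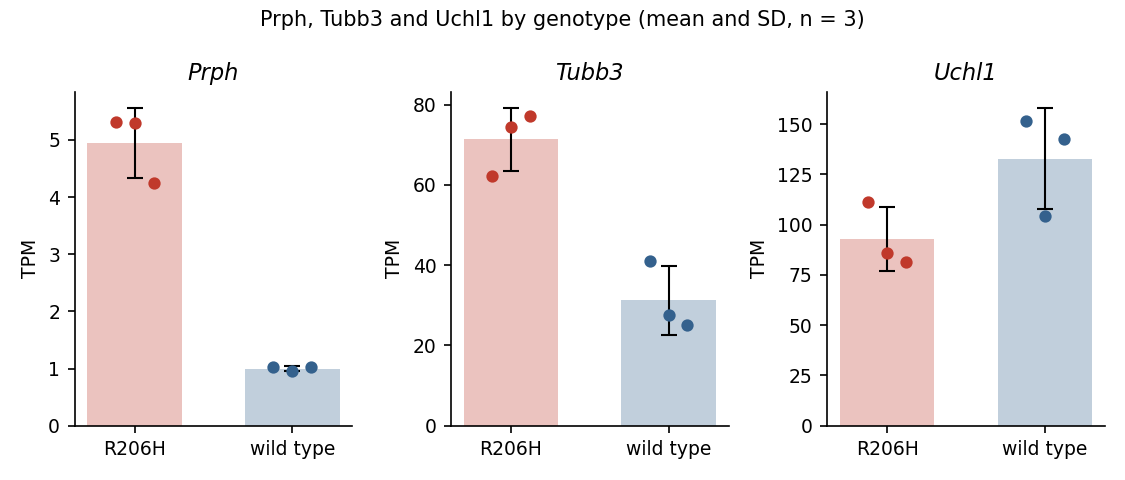
TPM of Prph, Tubb3 and Uchl1 in each library, with bars at the mean and error bars of 1 SD (n = 3 per genotype), R206H left and wild type right. The groups separate for Prph and Tubb3, whereas for Uchl1 R206H library 1, at 111.2 TPM, lies above wild-type library 2, at 104.3 TPM.

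The RNA-binding genes were low. Elavl4 (chromosome 4, 110203722 to 110351909, minus strand) had 2.13, 1.75 and 1.40 TPM in R206H libraries 1, 2 and 3, against 1.18, 2.66 and 1.25 TPM in wild-type libraries 1, 2 and 3. Wild-type library 2 was the highest and wild-type library 1 the lowest, so the R206H libraries fell inside the wild-type range (log2 change 0.07, 95% interval -0.55 to 0.68, limma adjusted p = 0.894). Elavl3 had 0.149, 0.0609 and 0.051 TPM in R206H, against 0.0308, 0.0215 and 0.233 TPM in wild type. These are at most 6 reads in R206H and 10 reads in wild type, and wild-type library 3 decides the ratio of means, which was 0.913 with it and 3.32 without it. A small stretch of its exons, 3.72%, also lies in the gene model Gm49318.

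Uchl1 (chromosome 5, 66676091 to 66687234, plus strand) had 111.2, 86.0 and 81.6 TPM in R206H libraries 1, 2 and 3, against 151.8, 104.3 and 142.6 TPM in wild-type libraries 1, 2 and 3. The groups overlapped only between R206H library 1 and wild-type library 2. The means were 92.9 ± 15.9 TPM in R206H and 132.9 ± 25.2 TPM in wild type (SD, n = 3 each), and the log2 change of -0.51 (SE 0.168, 95% interval -0.90 to -0.11) did not pass after adjustment over all genes (limma adjusted p = 0.123). An antisense gene, Uchl1os, overlaps 18.1% of its exon length, where reads cannot be assigned for the same reason.

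By level, the order in R206H was Uchl1, Tubb3, Stmn2, Prph, Nefm, Elavl4, Nefl, Dcx and Elavl3. Every R206H library of a gene lay above every R206H library of the next, except that Nefm and Elavl4, Elavl4 and Nefl, and Dcx and Elavl3 overlapped. In wild type Prph stood after Nefm and Elavl4 instead of before them and overlapped with Nefl, as Nefm did with Elavl4 and Dcx with Elavl3. Uchl1 had 92.9 TPM in R206H against 71.3 TPM for Tubb3 in the same libraries, and 132.9 TPM in wild type against 31.2 TPM for Tubb3.

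Within a genotype the genes did not rank the libraries alike. In R206H, 7 of the 9 genes were highest in library 1, and the other 2, Tubb3 and Stmn2, were highest in library 3. In wild type, 2 were highest in library 1 (Tubb3 and Uchl1), 3 in library 2 (Stmn2, Dcx and Elavl4) and 4 in library 3. R206H library 1 also had the highest sums among the R206H libraries for skeletal muscle markers, at 1215.7 TPM, epithelial markers, at 410.0 TPM, and macrophage markers, at 142.5 TPM. The part of these differences in the neuronal values was not tested.

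Relatives of the 9 genes in the same 6 families were read from the same fit. Of 29 listed relatives 24 were tested, 1 was called higher, 0 lower and 23 not called, beside the same 1.26% and 0.79% of all genes, with a median log2 change of -0.06. At an unadjusted limma p under 0.05 there were 14, against 26.1% of all genes. By limma voom 3 were called higher and 2 lower, beside 4.61% and 4.08% of all genes. The call was Elavl2, the third neuronal member of the ELAV family, which rose to 4.76 ± 0.79 TPM in R206H, against 1.86 ± 0.276 TPM in wild type (SD, n = 3 each, log2 change 1.01, SE 0.171, limma adjusted p = 0.0476). Its libraries did not overlap, at 3.93, 4.85 and 5.50 TPM in R206H and 1.63, 1.78 and 2.17 TPM in wild type. The call was lost without any single library but R206H library 1, with an adjusted p of 0.059 to 0.156 and a log2 change of 0.91 to 1.08 in those fits. Elavl1, the ubiquitous member, had 28.1 ± 1.9 TPM in R206H and 29.9 ± 1.7 TPM in wild type.

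Beside Tubb3, 11 further tubulin genes were tested. By limma 0 were called and 7 had an unadjusted p under 0.05, beside 26.1% of all genes. Limma voom called Tubb2a and Tuba1a higher and Tuba4a lower, beside 4.61% and 4.08% of all genes. Tubb2a, another beta-tubulin abundant in neurons, had 229 ± 1.67 TPM in R206H and 186.7 ± 11.4 TPM in wild type (log2 change 0.30, limma adjusted p = 0.0511). Tuba1a, the main alpha-tubulin of developing neurons, had 2686.4 ± 94.1 TPM in R206H and 2146.2 ± 136.9 TPM in wild type (log2 change 0.33, limma adjusted p = 0.0593). The widely expressed Tubb5 had 2185.4 ± 24.9 TPM in R206H and 2163.7 ± 11.7 TPM in wild type. Tuba1b, Tuba1c, Tubb4b and Tubb6 had log2 values of -0.24, -0.39, -0.18 and -0.24, Tuba4a one of -0.50, and Tubg1, Tubb2b and Tubb4a values of -0.06 to 0.10. Tubulin genes share long stretches of coding sequence, so how reads were divided between them is uncertain.

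Among the other intermediate filament genes, vimentin (Vim), the main filament of fibroblasts, had 3117.3 ± 99.6 TPM in R206H and 3202.9 ± 349.6 TPM in wild type. Nestin (Nes), a filament of progenitor cells, had 316.6, 238.7 and 160.5 TPM in R206H libraries 1, 2 and 3, against 401.8, 336.6 and 333.5 TPM in wild-type libraries 1, 2 and 3, without overlap (log2 change -0.63, limma adjusted p = 0.144). Synm had a log2 value of 0.58 and Des one of 0.21, neither past the threshold. The neuronal filament genes Nefh and Ina stayed under 1 TPM in all libraries. Stmn1 and Stmn4 had log2 values of -0.23 and -0.46, Dclk1 and Dclk2 values of 0.37 and 0.14, and the ubiquitin hydrolase genes Uchl5, Uchl3 and Bap1 values of -0.33, -0.24 and -0.05, none of them called by limma. For Stmn4 the ratio of means was 0.535 with all libraries and 1.03 without wild-type library 1.

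**Figure D3:**
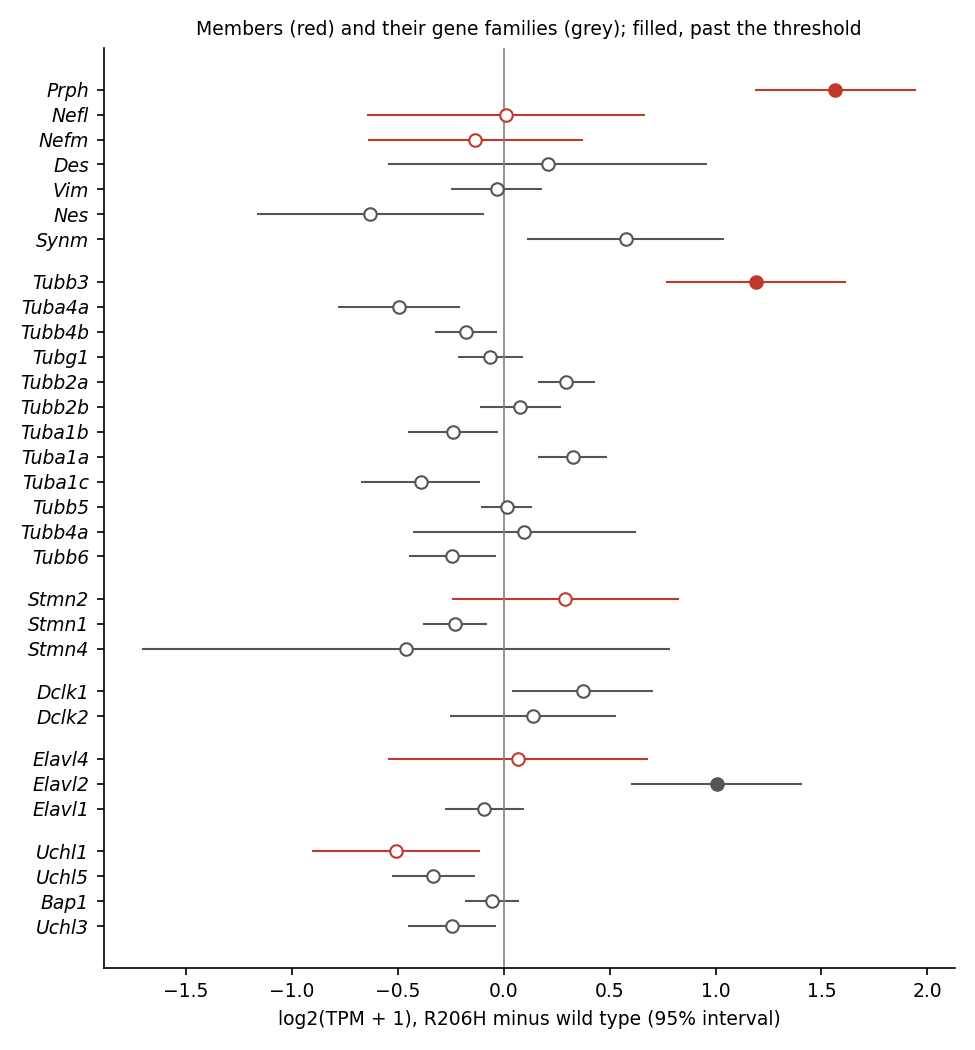
Change on the log2(TPM + 1) scale, R206H minus wild type, with 95% intervals, for the 7 tested neuronal genes (red) and their tested relatives averaging at least 1 TPM (grey), grouped by family. Filled marks passed an adjusted p of 0.05 over all genes: Prph, Tubb3 and the relative Elavl2.

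Whether other neuronal genes moved was read from 5 lists covering the neuronal skeleton and growth, synaptic vesicles, peripheral neuron identity, proneural transcription factors and neuroendocrine granules. They name 148 genes, of which 147 were in the table, 71 stayed under 1 TPM in every library and 69 were tested. Of these limma called 1 higher, 0 lower and 68 not, beside 1.26% higher and 0.79% lower of all genes. At an unadjusted limma p under 0.05 there were 17, beside 26.1%. By limma voom 6 were called higher and 2 lower, beside 4.61% and 4.08% of all genes by that tool. The median log2 change was 0.12, against 0.02 over all genes. The call was Hand2, a transcription factor of sympathetic neurons that also acts in limb, heart and jaw mesenchyme, at 34.3, 37.4 and 29.9 TPM in R206H libraries 1, 2 and 3, against 19.2, 20.9 and 22.5 TPM in wild-type libraries 1, 2 and 3 (log2 change 0.67, limma adjusted p = 0.0454). Its groups did not overlap. The call was lost without any single library but R206H library 1, with an adjusted p of 0.052 to 0.152 and a log2 change of 0.60 to 0.75 in those fits.

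In the list of skeleton and growth genes, 29 of 37 were tested. By limma 0 were called and 8 had an unadjusted p under 0.05, beside 26.1% of all genes. Limma voom called Kif5c, Nsg1 and Thy1 higher and Nrcam lower, beside 4.61% and 4.08% of all genes. Thy1, a surface glycoprotein of neurons that fibroblasts carry too, had 313.4 ± 88.5 TPM in R206H and 137.3 ± 27.3 TPM in wild type (log2 change 1.17, limma adjusted p = 0.0501). Kif5c, a kinesin motor heavy chain, had 13.3 ± 1.02 TPM in R206H and 9.41 ± 0.394 TPM in wild type (log2 change 0.45, limma adjusted p = 0.0591).

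In the synaptic vesicle list, 13 of 31 were tested. By limma 0 were called and 3 had an unadjusted p under 0.05, beside 26.1% of all genes, and voom called Syt11 higher, beside 4.61%. Syt11, a synaptotagmin present well beyond neurons, had 32.5 ± 7.91 TPM in R206H and 16.0 ± 3.55 TPM in wild type (log2 change 0.97, limma adjusted p = 0.059). The vesicle GTPase gene Rab3a had 11.8 ± 1.08 TPM in R206H and 8.17 ± 0.733 TPM in wild type (limma adjusted p = 0.0671). In the peripheral neuron list, 17 of the 38 genes in the table were tested. Of these 3 had an unadjusted limma p under 0.05, beside 26.1% of all genes. Limma voom called Ntrk2, a neurotrophin receptor gene, as well as Hand2, beside 4.61% of all genes called higher.

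In the proneural list, 7 of 28 were tested, and 19 genes stayed under 1 TPM in every library, among them Neurog1, Neurog3, Neurod4 and Atoh1, which were listed at 0 in all 6. By limma 0 were called and 2 had an unadjusted p under 0.05, beside 26.1% of all genes, and voom called Ebf2 lower, beside 4.08%. Ebf2, an early B-cell factor gene, had 5.10 ± 1.03 TPM in R206H and 8.48 ± 0.503 TPM in wild type (log2 change -0.65, limma adjusted p = 0.0671), and Hes6 had 43.3 ± 3.93 TPM in R206H and 36.6 ± 2.27 TPM in wild type. Of 13 neuroendocrine granule genes 3 were tested, with 0 called by either tool. At an unadjusted limma p under 0.05 there was 1, beside 26.1% of all genes. The processing enzyme gene Cpe had 465.2 ± 42.5 TPM in R206H and 554.2 ± 27.3 TPM in wild type (limma adjusted p = 0.108), and Ptprn had 114.9 ± 6.14 TPM in R206H and 122.9 ± 9.5 TPM in wild type.

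The label of the set was set against further markers that define neurons, and most of these were near 0. Snap25 and Syp, of synaptic vesicles and their release machinery, reached at most 0.247 and 0.185 TPM in any library, and the sensory neuron factor gene Pou4f1 at most 0.138 TPM. Rbfox3, which encodes the nuclear antigen NeuN, was listed at 0 in all wild-type libraries and rested on 3, 1 and 1 reads in R206H libraries 1, 2 and 3. Syt1 had 0.615, 0.403 and 0.422 TPM in R206H libraries 1, 2 and 3, against 0.331, 0.195 and 0.116 TPM in wild type. Clearly measured were Gap43, a growth cone protein, at 152.6 to 172.1 TPM in R206H and 135.1 to 178.5 TPM in wild type, Map2, at 3.16 to 3.50 TPM in R206H and 3.29 to 4.30 TPM in wild type, and Isl1, at 1.73 to 4.04 TPM in R206H and 1.94 to 2.30 TPM in wild type.

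Neuronal genes are held down in most other cells by REST, a repressor that recruits corepressors with histone deacetylases and demethylases. All 18 listed genes of this machinery were tested, 0 were called by limma, and 6 had an unadjusted p under 0.05, beside 26.1% of all genes. The median log2 change was 0.09, and limma voom called Ctdsp2 higher, beside 4.61% of all genes. Rest itself had 33.4 ± 1.02 TPM in R206H and 30.9 ± 1.47 TPM in wild type (log2 change 0.11, 95% interval -0.05 to 0.27, limma adjusted p = 0.335). The phosphatase gene Ctdsp2 had 214.6 ± 33.2 TPM in R206H and 149.9 ± 6.35 TPM in wild type (log2 change 0.50, limma adjusted p = 0.0596), and Hdac1 221.5 ± 3.29 TPM in R206H and 198.0 ± 7.93 TPM in wild type.

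Of 21 ligands that sustain or guide axons, 20 were tested. By limma 0 were called and 8 had an unadjusted p under 0.05, beside 26.1% of all genes. The log2 change was negative for 15 of the 20, with a median of -0.17. Limma voom called 1 higher, Sema3f, and 3 lower, among them Sema3c and Ntn4, beside 4.61% and 4.08% of all genes. The repellent gene Sema3f had 58.4 ± 12.4 TPM in R206H and 37.9 ± 2.6 TPM in wild type (limma adjusted p = 0.0727).

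Schwann cells and the neural crest, the closest kin of peripheral neurons in the embryo, were read from their own list. Of 19 listed markers 17 were tested, 4 were called lower, 0 higher and 13 not called, with a median log2 change of -0.53, beside 0.79% of all genes called lower. At an unadjusted limma p under 0.05 there were 10, beside 26.1% of all genes, and voom called 8 lower, beside 4.08%. Foxd3, a neural crest factor gene, fell to 4.41, 4.24 and 2.65 TPM in R206H libraries 1, 2 and 3, against 7.94, 9.10 and 10.1 TPM in wild-type libraries 1, 2 and 3 (log2 change -1.09, limma adjusted p = 0.0476). Its groups did not overlap. Sox10, the factor of glia and crest, averaged 7.81 ± 2.09 TPM in R206H and 17.8 ± 3.24 TPM in wild type, Ngfr, a neurotrophin receptor, 18.3 ± 5.51 TPM in R206H and 39.8 ± 2.61 TPM in wild type, and the cadherin gene Cdh19 2.11 ± 0.307 TPM in R206H and 5.05 ± 0.709 TPM in wild type (SD, n = 3 each, log2 changes -1.10, -1.12 and -0.96, limma adjusted p = 0.0476 for each). The count of 4 became 0 without R206H library 2, R206H library 3, wild-type library 2 or wild-type library 3, 1 without wild-type library 1 and 5 without R206H library 1.

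**Figure D4:**
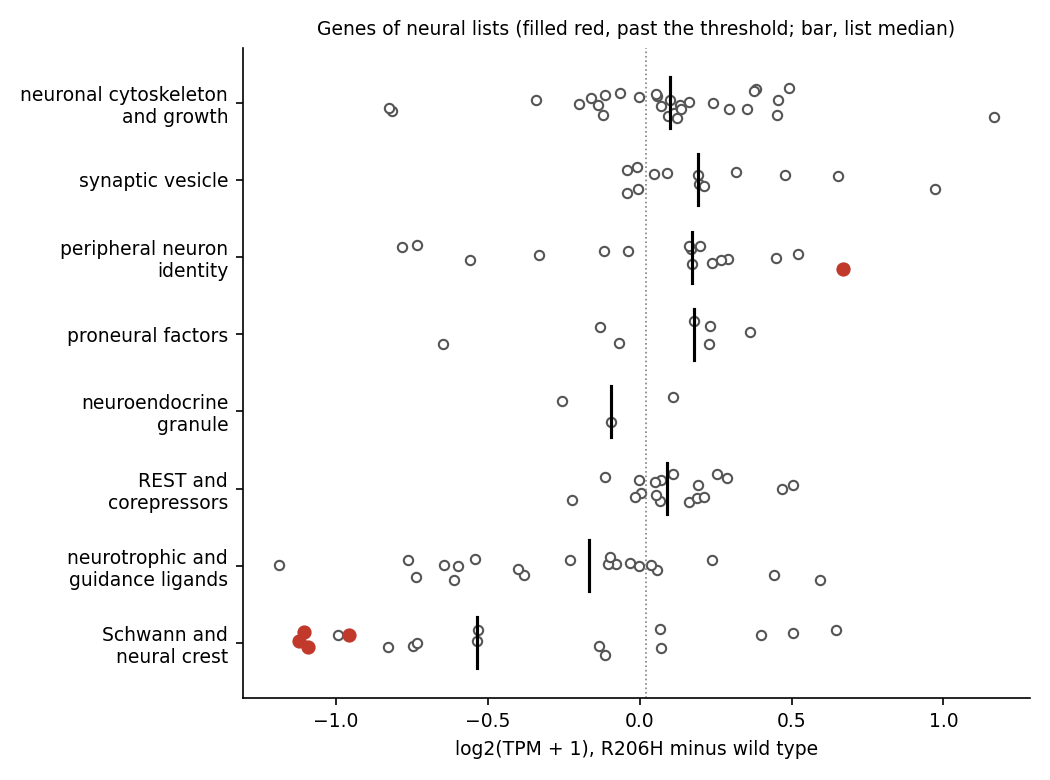
Change on the log2(TPM + 1) scale, R206H minus wild type, for each tested gene of 8 neural lists, 1 mark per gene, with the list median as a black bar and the median of all genes, 0.02, as a dotted line. Filled marks passed an adjusted p of 0.05: Hand2 upward and the 4 Schwann and neural crest genes downward.

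Markers of other embryonic cells were measured in both genotypes, and the sums of some lists separated by genotype as Prph and Tubb3 did. The 14 fibroblast markers summed to 11898.8 to 14997.7 TPM in R206H and 8132.0 to 9982.5 TPM in wild type, and the 18 epithelial markers to 206.2 to 410.0 TPM in R206H and 555.9 to 656.1 TPM in wild type. Abundant genes weigh most in such sums. The collagen gene Col1a1 alone, on the fibroblast list, had 4881.3 ± 875.6 TPM in R206H and 2214.1 ± 890.2 TPM in wild type. The log2 change was positive for 12 of the 14 fibroblast markers and negative for 2. By limma 0 of the 14 fibroblast markers were called and 9 had an unadjusted p under 0.05, beside 26.1% of all genes. Limma voom called 7 higher, beside 4.61% of all genes. Beside Thy1, the collagen gene Col1a2 had 855.4 ± 187.7 TPM in R206H and 409.1 ± 118.8 TPM in wild type (limma adjusted p = 0.0617). Of the 13 epithelial markers tested, 2 were called lower, beside 0.79% of all genes, with a median log2 change of -1.39. By voom 5 were called lower, beside 4.08% of all genes, and 11 had an unadjusted limma p under 0.05, beside 26.1%. The limma calls were the junction gene Cldn3, at 2.14 ± 0.122 TPM in R206H and 10.3 ± 2.45 TPM in wild type (limma adjusted p = 0.0272), and the adhesion gene Epcam, at 0.904 ± 0.0582 TPM in R206H and 4.52 ± 1.87 TPM in wild type (limma adjusted p = 0.0476). Epcam passed the filter through wild type only. Its R206H libraries 1, 2 and 3 had 0.838, 0.926 and 0.948 TPM, an estimated 11, 10 and 12 reads. Mesothelial markers summed to 214.5 to 490.2 TPM in R206H and 605.9 to 644.0 TPM in wild type, and 1 of 10 tested, Msln, was called lower, at 41.7 ± 16.0 TPM in R206H and 104.0 ± 6.53 TPM in wild type (limma adjusted p = 0.0489), while voom called 3 lower and 5 had an unadjusted limma p under 0.05. Without R206H library 2, R206H library 3 or wild-type library 3, the limma calls of Cldn3, Epcam and Msln were all lost, with an adjusted p of 0.0641 to 0.167. The Schwann and crest list summed to 267.2 to 274.8 TPM in R206H and 296.6 to 335.3 TPM in wild type. Sums overlapped between genotypes for skeletal muscle, at 661.2 to 1215.7 TPM in R206H and 807.0 to 1040.4 TPM in wild type, and for macrophage, endothelial and neural progenitor markers. Of the 8 neural progenitor genes tested, 1 was called lower by both limma and voom, beside 0.79% and 4.08% of all genes. At an unadjusted limma p under 0.05 there were 3, beside 26.1%, and the median log2 change was -0.3. Of the tested muscle, macrophage and endothelial genes 0 were called by limma or limma voom, and 0, 2 and 2 had an unadjusted limma p under 0.05, beside 26.1% of all genes. Their smallest p belonged to Chrna1 and Actc1, C1qa and Fcer1g, and Esam and Kdr, with log2 values of -0.54 and -0.60, 0.64 and 0.92, and -0.79 and -0.50. The share of TPM from the mitochondrial genome was 3.43% to 3.85% in R206H and 4.16% to 4.57% in wild type. The part of any of these in the values of Prph and Tubb3 was not tested.

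**Figure D5:**
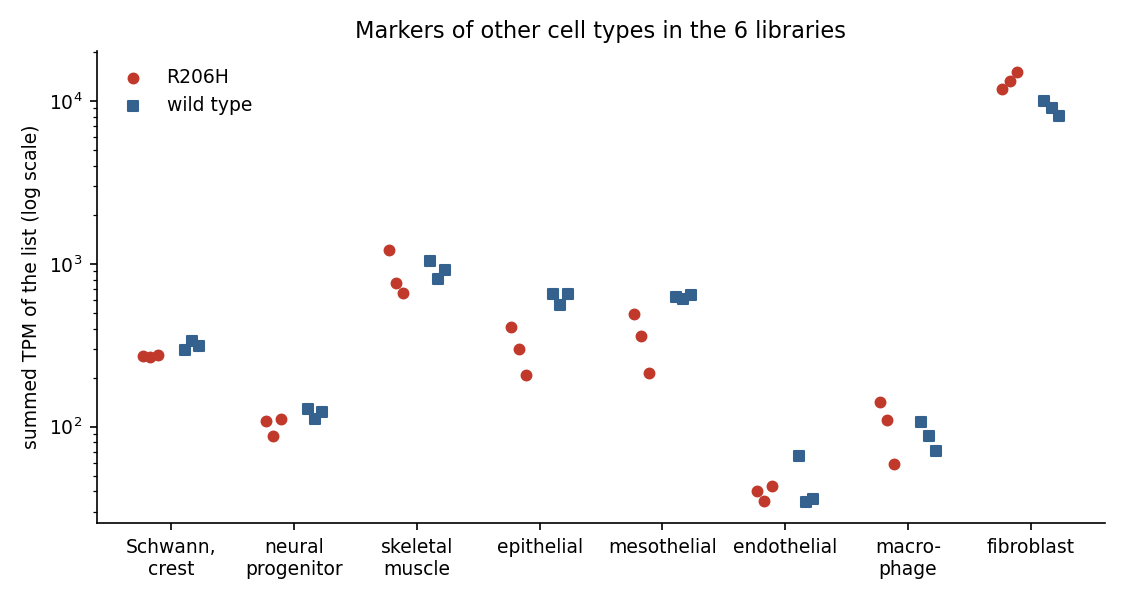
Summed TPM of 8 marker lists on a log axis, with R206H libraries as red circles and wild-type libraries as blue squares, 1 mark per library. Epithelial, mesothelial and Schwann sums lie lower in R206H in every library and fibroblast sums higher, while muscle, macrophage, endothelial and progenitor sums overlap. Abundant genes weigh most in each sum, such as Col1a1 among the fibroblast markers.

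The genes whose log2(TPM + 1) values ran most like those of Prph over the 6 libraries, among named genes tested, were Mir1258, Sytl2, Hgf, Srpx2 and Fam20b, with Pearson r of 0.994, 0.992, 0.991, 0.990 and 0.985. These r describe 6 points in 2 groups, and the gene ranked 1000 still had 0.836. Hgf, hepatocyte growth factor, had 4.33 ± 0.0718 TPM in R206H and 1.91 ± 0.127 TPM in wild type, and Srpx2, a secreted sushi-repeat protein, had 23.7 ± 2.2 TPM in R206H and 14.0 ± 0.454 TPM in wild type. Sytl2 and Fam20b had log2 values of 0.21 and 0.16. Mir1258 rested on 1 read in each R206H library and was listed at 0 in each wild-type library (limma adjusted p = 0.0272, limma voom adjusted p = 0.182). Around Prph, 15 other tested genes start within 250 kb, and around Tubb3 18, with 0 called by limma in either stretch and median log2 changes of -0.04 and 0.10. The nearest tested genes on either side of Prph, Tuba1c and Troap, had log2 values of -0.39 and -0.32 (limma voom called Troap lower), and those beside Tubb3, Tcf25 and Def8, had values of 0.11 and 0.10. Acvr1 itself had 44.4 ± 2.69 TPM in R206H and 34.7 ± 1.01 TPM in wild type (limma adjusted p = 0.0511), without overlap, and limma voom called it higher (adjusted p = 0.0311). This does not check the genotype labels, as the mutation changes 1 amino acid.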

How the data were processed

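The authors deposited TPM values of 6 libraries in a table of 49315 Ensembl identifiers, with a sum of 1000000 per library. The submitters' processing notes name STAR, Trimmomatic, Subread, featureCounts and DESeq2 as tools, and GRCm38 and mm10 as builds, without versions or roles. The sources used here do not give gene lengths, the annotation release or the strand setting. Since TPM is a share of the library, abundant transcripts lower all others.

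The test took genes reaching 1 TPM in 3 or more libraries, on log2(TPM + 1) and used limma 3.58.1 (lmFit, eBayes with trend, two-sided, no covariate) in R 4.3.3, adjusted by Benjamini-Hochberg over all 14818 genes at 0.05. Reads were rebuilt from TPM and GENCODE M21 exon lengths: 91.1% to 91.5% of values under 100 reads were whole within 0.05, and 259 identifiers had no length. Limma voom on these rounded reads was an alternative. Others were the pseudocount, filter, scaling, trend, library weights, replicate block and each library left out. Tested on simulated data, the fit recovered the larger changes but called more unchanged genes than its threshold aims for, so calls close to 0.05 are weak. Only genes averaging more than 100 reads were given a change there, with the same dispersion for all genes. Recovery of changes in genes with fewer reads, such as Prph, was not tested. Python 3.11.15 joined and plotted the tables.

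The 9 genes and all lists were chosen with earlier results of these data known. Named were all 9, relatives averaging 1 TPM or more, and in each other list up to 4 called genes of smallest p, or up to 2 where none was called, then the 5 named genes closest to Prph. A few genes that the rule names are not reported here. Chosen after their values were seen were Rest, Acvr1, the genes called by voom and the neighbours. Motifs were searched on both strands. No library was a copy of another: any pair shared at most 1 identical value above 0. Each p-value sets a difference between genotypes against the spread between these libraries, moderated over all genes.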

Additional observations from a re-analysis of the deposited data

How the results depend on the processing

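Over the settings tried, Prph and Tubb3 stayed higher in R206H, but their calls did not always hold. The log2 change of Prph stayed at 1.57 with no filter (limma adjusted p = 0.0893) and with the replicate number as a block (0.0989), and ran from 1.52 to 1.65 with single libraries left out. It was 2.19 at a pseudocount of 0.1 and 0.73 at a pseudocount of 5. Its adjusted p ran from 0.0106 to 0.152 over the settings that tested it, which the filter at 5 TPM did not. That of Tubb3 stayed at 1.19 with no filter (0.108), without the mean-variance trend (0.0804) and with the block (0.119), and ran from 1.06 to 1.40 with single libraries left out, with adjusted p from 0.0115 to 0.152. Changes near 0 turned sign: Nefl had -0.00228 with median-of-ratios scaling, -0.06 with library weights, -0.05 with limma voom, and -0.17 to 0.16 with single libraries left out, where Nefm had -0.27 to 0.02 and Elavl4 -0.07 to 0.31. The calls of Elavl2 and Hand2 were lost with no filter (adjusted p = 0.116 and 0.107), quantile normalization (0.0512 and 0.0517), no trend (0.0692 and 0.0801) and the block (0.118 and 0.119), and that of Elavl2 at a pseudocount of 0.1 (0.0504). Dcx had -0.39 instead of -0.08 at a pseudocount of 0.1.

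Genes called higher and lower numbered 186 and 117. They were 92 and 37 at a pseudocount of 0.1, 2 and 0 with no filter, 362 and 225 with a filter at 5 TPM, 125 and 75 with quantile normalization, 19 and 8 without the trend, 1122 and 784 with library weights, 0 and 0 with the block, 681 and 603 with voom, and 0 to 411 and 0 to 311 with single libraries left out. Neuronal and family genes called higher numbered 2, but 1 at pseudocount 0.1, 7 with the filter at 5 TPM, 11 with weights, 9 with voom, 0 with no filter, quantile normalization, no trend or the block, and 0 to 6 with single libraries left out. Those called lower were 0, but 8 with weights, 4 with voom and 0 to 1 with single libraries left out. Schwann and crest genes called lower were 4, but 0 at pseudocount 0.1, with no filter, without the trend and with the block, 2 with quantile normalization, 7 with weights, 8 with voom and 0 to 5 with single libraries left out. At an unadjusted p under 0.05 there were 3861 genes, and 3301 with the block. Deviations of libraries sharing a replicate number correlated at 0.018, 0.0599 and -0.0283, and those of differing number at -0.0518 to 0.0297. No pairing by number was seen, though a weak one could be missed with 3 libraries per genotype. Genes under about 1 TPM, such as Dcx and Elavl3, rest on too few reads for a direction.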
